A study of Mus musculus with 2 samples.

Results

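The genes described here are 33 transcription factors that pattern the forebrain or mark its neurons, read in the whole heads of newborn mice. They were chosen by name, and every probe set whose single platform gene symbol was one of the 33 names was taken, which gave 87 of the 45101 probe sets on the array. They were sorted by known role into 11 factors of cortical excitatory neurons, 10 of interneurons and the ventral forebrain, 5 of the striatum and 7 of progenitors. The MatDp(dist2) head came from the young of mice that carry the T(2:9)11H translocation. Past the T11H breakpoint both of its copies of Chr 2 were maternal, and both of its copies of distal Chr 9 were therefore paternal. The PatDp(dist2) head, also from the young of translocation carriers, had a paternal distal Chr 2 and a maternal distal Chr 9. Each genotype was measured on 1 Affymetrix array, and neither the number of animals nor their sex is stated in the labels. With 1 array per genotype no spread between animals can be measured, so no difference below has a test or a p-value.

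The forebrain forms its neurons in separate zones. Progenitors of the dorsal wall, the pallium, carry Emx and Lhx2 homeodomain factors, pass through a stage of Neurog2 and Eomes, and become glutamatergic neurons that turn on Neurod and Tbr1. Progenitors of the ventral wall carry Gsx2, Dlx and Nkx2-1 factors and give rise to the GABAergic neurons of the striatum and to the interneurons that migrate into the cortex. At birth most cortical neurons of the mouse have been made, and the layers, the striatum and the olfactory bulb are settling into place. Many of these factors also work outside the brain, among them Dlx and Lhx8 in the jaws and teeth, Isl1 in sensory ganglia and Mef2c in muscle, so a whole head holds several sources of their RNA.

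Values are MAS5 signals on a linear scale, as deposited, and each ratio has MatDp(dist2) on top and PatDp(dist2) below. A signal below 187, the median of both arrays' 50th percentiles, was treated as below the floor. Where this held for 1 of the 2 arrays, the fold printed is the brighter signal divided by 187, a lower bound ("at least"), and where both did, no fold is given. A bound under 2-fold does not show that a gene differed by less than 2-fold. A gene or probe set is called measured where at least 1 array reached the floor. Each gene stands on its brightest probe set unless a probe set is named. Levels of different probe sets cannot be set against each other, since each probe set binds with its own strength.

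Forebrain factors were higher in MatDp(dist2) as a group, among them the Neurod genes of excitatory neurons. On the deposited signals without the floor, 30 of the 33 factors had the higher signal in MatDp(dist2) and 3 (Mef2c, Cux1 and Lhx8) had the higher signal in PatDp(dist2), while 54.3% of all 18193 genes were higher in MatDp(dist2). The median ratio over the 33 on these signals was 2.66-fold, against 1.04-fold over all genes. It includes signals below the floor, where MAS5 values are noisy. In both heads 20 factors reached the floor, of which 10 were 2-fold or more higher in MatDp(dist2) and 0 2-fold or more higher in PatDp(dist2). Among all 11270 genes that reached the floor in both heads, 3.73% were 2-fold or more higher in MatDp(dist2) and 3.52% 2-fold or more higher in PatDp(dist2). The median log2 ratio was 1.05 (2.08-fold) over these 20 factors and 0.00071 over these 11270 genes.

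A further 10 factors reached the floor in MatDp(dist2) alone, and none did so in PatDp(dist2) alone. These could only come out higher in MatDp(dist2), and 6 of them had a bound of at least 2-fold. Counting bounds, 16 of the 30 measured factors were 2-fold or more higher in MatDp(dist2) and 0 in PatDp(dist2), where the same rule called 4.43% and 3.47% of 12483 measured genes. The calls of Cux2, Dlx1, Eomes, Lhx6, Pou3f2 and Tbr1 were lost both with an offset of 100 on every signal and with a higher floor of 465, and that of Lhx2 with the higher floor, which left 10 factors with the offset and 9 of 21 measured with the higher floor. The call of Cux2 was also lost with quantile normalization and with the loess fit, and that of Dlx1 with quantile normalization. Lhx6 had no probe set left once those whose ID ends mark them as matching several transcripts were left out, so it had no value there. The remaining 3 factors, Nkx2-1, Sp8 and Gsx2, were below the floor in both heads. RNA of a whole head cannot tell fewer cells of a type from less RNA per cell, for any of these genes.

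**Figure D1:**
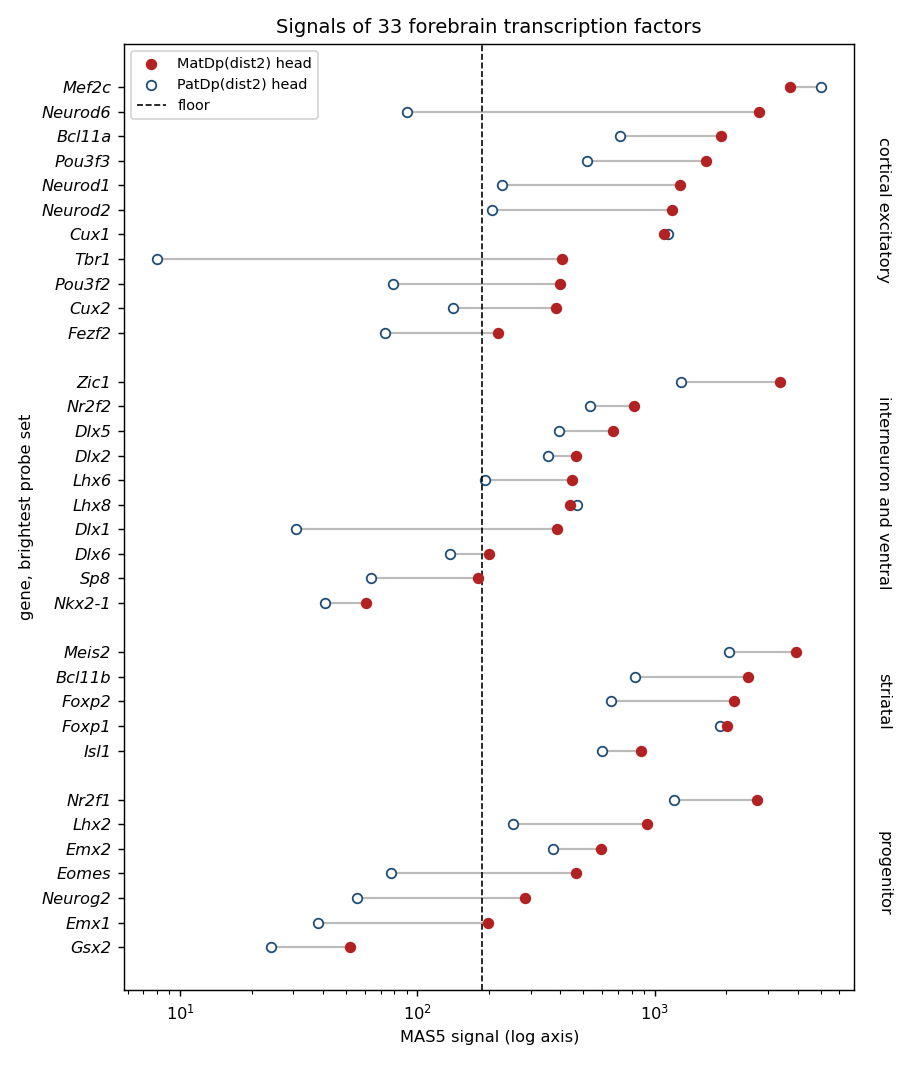
MAS5 signal (log axis) of each of the 33 forebrain transcription factors on its brightest probe set, with filled points for the MatDp(dist2) head, open points for the PatDp(dist2) head and a dashed line at the floor of 187. The filled point lies to the right for 30 of the 33 genes, and the widest gaps are those of Tbr1, Neurod6 and Dlx1, whose open points lie below the floor.

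Among the factors of cortical excitatory neurons, 9 of 11 had the higher signal in MatDp(dist2) and 2 in PatDp(dist2). Of the 6 that reached the floor in both heads 4 were 2-fold or more higher in MatDp(dist2), and bounds brought that count to 8 of 11. Neurod6, a basic helix-loop-helix factor of postmitotic pyramidal neurons, had a signal of 2752 in MatDp(dist2) against 90.1 in PatDp(dist2), at least 14.7-fold higher. Its signal in PatDp(dist2) was below the floor, so this bound has no rank among the 33. Neurod2, a related factor that drives the maturation of excitatory neurons, had 1184 in MatDp(dist2) against 206 in PatDp(dist2) on its brightest probe set, 5.74-fold higher. A second Neurod2 probe set, 1418995_at, had 958 in MatDp(dist2) against 81.7 in PatDp(dist2), at least 5.12-fold higher, and the last, 1444362_at, was below the floor in both heads. Neurod1, which also acts in the pancreas, retina, pituitary and sensory ganglia, had 1277.5 in MatDp(dist2) against 227 in PatDp(dist2), 5.63-fold higher. Its other probe set, 1426413_at, had 879 in MatDp(dist2) against 155 in PatDp(dist2), at least 4.70-fold higher. All 5 measured probe sets of the 3 Neurod genes were therefore more than 4-fold higher in MatDp(dist2). The PatDp(dist2) signals of 227 for Neurod1 and 206 for Neurod2 lay just above the floor, and the other ratios are bounds. With the higher floor of 465, the log2 bounds were 1.46 for Neurod1 and 1.35 for Neurod2.

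The promoters of these Neurod genes and of Tbr1 are shown because each of the genes had the higher signal in MatDp(dist2). Neurod proteins bind DNA at E-boxes, and many other forebrain factors bind at homeodomain cores. The 250 bases before the start of each gene are given 5′ to 3′ on the gene's strand, from RefSeq for GRCm38.p6, at chr2:79456637-79456886 (minus strand) for Neurod1, chr11:98329646-98329895 (minus strand) for Neurod2, chr6:55681264-55681513 (minus strand) for Neurod6 and chr2:61804203-61804452 (plus strand) for Tbr1. Capitals mark the E-boxes CATATG and CAGATG (or its reverse complement CATCTG) and the homeodomain core TAATTA.
Neurod1: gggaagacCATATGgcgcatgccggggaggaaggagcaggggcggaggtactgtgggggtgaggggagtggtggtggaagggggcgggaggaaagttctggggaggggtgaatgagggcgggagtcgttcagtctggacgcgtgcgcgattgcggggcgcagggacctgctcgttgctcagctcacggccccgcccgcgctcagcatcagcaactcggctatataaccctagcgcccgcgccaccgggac
Neurod2: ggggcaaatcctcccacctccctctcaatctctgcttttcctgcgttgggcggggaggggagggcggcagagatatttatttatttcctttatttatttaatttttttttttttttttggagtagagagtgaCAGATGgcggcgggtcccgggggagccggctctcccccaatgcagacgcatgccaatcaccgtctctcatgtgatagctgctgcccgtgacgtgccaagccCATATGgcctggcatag
Neurod6: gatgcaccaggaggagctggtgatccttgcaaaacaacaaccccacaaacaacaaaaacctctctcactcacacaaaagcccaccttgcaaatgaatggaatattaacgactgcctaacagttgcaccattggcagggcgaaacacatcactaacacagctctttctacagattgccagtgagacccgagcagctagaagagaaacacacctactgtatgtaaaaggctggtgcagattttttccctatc
Tbr1: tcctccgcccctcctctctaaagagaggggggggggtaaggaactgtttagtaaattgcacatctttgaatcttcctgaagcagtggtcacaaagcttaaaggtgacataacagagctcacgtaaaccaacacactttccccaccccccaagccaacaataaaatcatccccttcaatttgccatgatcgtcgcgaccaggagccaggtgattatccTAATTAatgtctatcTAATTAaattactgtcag

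The Neurod1 window held 1 CATATG, with its first base 242 bases before the start. Neurod2 held a CAGATG 118 bases and a CATATG 17 bases before the start. Tbr1 held TAATTA at 33 and at 18 bases before the start, and the Neurod6 window held none of the 3 motifs. E-boxes with other letters were neither searched for nor marked, so a window without these motifs can still hold an E-box. Both strands were searched (CATATG and TAATTA read the same on either), and no match overlapped another in these 4 windows. Of all 32851 promoter windows of this length, 3.46% held CATATG, 14.4% held CAGATG or CATCTG and 4.84% held TAATTA. Of the 30 factors with a promoter entry, counting any of a gene's windows, 3 held CATATG (Neurod1, Neurod2 and Mef2c), 4 held CAGATG or CATCTG (Neurod2, Cux2, Nr2f1 and Mef2c) and 4 held TAATTA (Tbr1, Foxp1, Sp8 and Mef2c). Among all 27025 genes counted the same way the shares were 3.98%, 16.3% and 5.65%. Dlx5, Dlx6 and Foxp2 had no entry. A match in these letters is a description of the window, not a site.

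Tbr1, a T-box factor of deep-layer and early-born cortical neurons, had a signal of 406.5 in MatDp(dist2) against 8.0 in PatDp(dist2), at least 2.17-fold higher. Its signal in PatDp(dist2) was far below the floor, where MAS5 values are noisy, so only the bound is given. Fezf2, a zinc finger factor that specifies subcerebral projection neurons, had 219 in MatDp(dist2) against 72.9 in PatDp(dist2), at least 1.17-fold higher, a small bound because its brighter signal was itself near the floor.

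Bcl11a, a zinc finger factor of cortical projection neurons that also acts in blood cells, had a signal of 1895 in MatDp(dist2) against 712 in PatDp(dist2), 2.66-fold higher. Of its 7 probe sets 4 were measured, and they ranged from at least 1.47-fold to 3.91-fold higher in MatDp(dist2). The highest of these ratios came from 1457072_at, which read 1629.6 in MatDp(dist2) against 417 in PatDp(dist2). The POU factors of upper-layer neurons shared the direction. Pou3f3 had a signal of 1645 in MatDp(dist2) against 520.1 in PatDp(dist2), 3.16-fold higher, and Pou3f2 had 399.6 in MatDp(dist2) against 78.5 in PatDp(dist2), at least 2.14-fold higher. The remaining probe sets of both, 2 of Pou3f2 and 1 of Pou3f3, were below the floor in both heads, and each read higher in MatDp(dist2).

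The Cux pair, homeodomain factors that mark upper cortical layers, split. Cux2, whose expression is more restricted to neurons, had 385 in MatDp(dist2) against 142 in PatDp(dist2) on its one measured probe set, at least 2.06-fold higher. Its other 2 probe sets were below the floor in both heads and pointed opposite ways, 1447821_at higher in PatDp(dist2) (158.9 in MatDp(dist2) against 186.3 in PatDp(dist2)) and 1450181_at higher in MatDp(dist2). Cux1, which many tissues express, had 1099 in MatDp(dist2) against 1140.3 in PatDp(dist2), 1.04-fold higher in PatDp(dist2), and its 6 measured probe sets ran from 1.04-fold higher in PatDp(dist2) to 1.46-fold higher in MatDp(dist2). Mef2c, a MADS-box factor of neurons, muscle, heart and cartilage, had 3718 in MatDp(dist2) against 5033 in PatDp(dist2), 1.35-fold higher in PatDp(dist2). Its 5 probe sets disagreed: 3 were higher in PatDp(dist2), the most on 1451506_at (2772 in MatDp(dist2) against 4233 in PatDp(dist2)), and 2 were higher in MatDp(dist2), the most on 1451507_at (1917 in MatDp(dist2) against 1307 in PatDp(dist2)). None reached 2-fold.

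**Figure D2:**
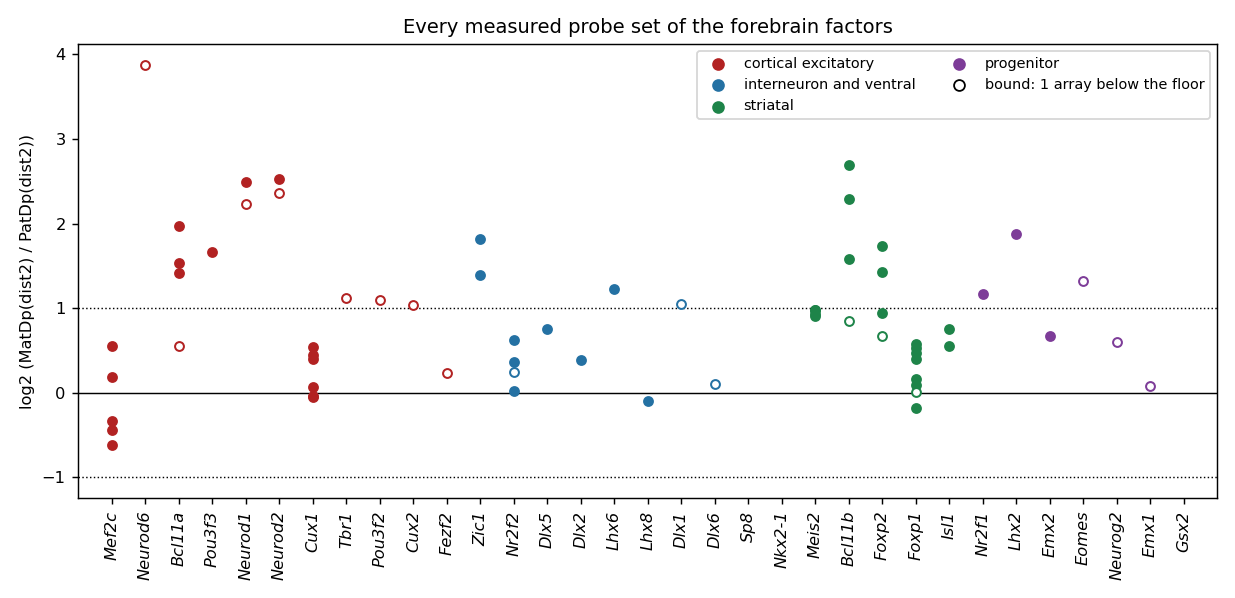
Log2 ratio of MatDp(dist2) over PatDp(dist2) for each measured probe set of each factor, coloured by group, with open points for bounds and dotted lines at 2-fold either way. No point lies at or below the lower dotted line, and genes with several probe sets, such as Bcl11b and Mef2c, spread by more than 1 log2 unit between probe sets of the same gene.

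Over probe sets in place of genes, 65 of the 87 were measured, 24 were 2-fold or more higher in MatDp(dist2) and 0 2-fold or more higher in PatDp(dist2). Of all 20764 measured probe sets with 1 gene symbol, 4.22% and 2.95% passed these thresholds. Probe sets of 1 gene read RNA of the same gene on the same arrays and are not independent measurements.

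Of the 10 factors of interneurons and the ventral forebrain, 9 had the higher signal in MatDp(dist2). Of the 6 that reached the floor in both heads 2 were 2-fold or more higher in MatDp(dist2), the median of the 6 was 1.61-fold, and bounds added 1 more gene. Whether this group differed from the excitatory factors was not tested. Zic1, a zinc finger factor of the septum, cerebellum and meninges, had a signal of 3371 in MatDp(dist2) against 1288.5 in PatDp(dist2), 2.62-fold higher, and 1439627_at gave 2214 in MatDp(dist2) against 629 in PatDp(dist2), 3.52-fold higher. Lhx6, a LIM homeodomain factor of interneurons from the medial ganglionic eminence and also of jaw mesenchyme, had 448 in MatDp(dist2) against 192 in PatDp(dist2), 2.33-fold higher, with the lower of these signals just above the floor. Its partner in the same zone, Lhx8, which specifies cholinergic neurons and is also made in tooth and jaw mesenchyme, had 439.6 in MatDp(dist2) against 471 in PatDp(dist2), 1.07-fold higher in PatDp(dist2). Nkx2-1, the selector gene of the medial ganglionic eminence, lay below the floor in both, at 60.4 in MatDp(dist2) against 40.8 in PatDp(dist2).

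The 4 Dlx genes, homeodomain factors of the ganglionic eminences that also pattern the jaws, were not equally far apart. Dlx1 had 386 in MatDp(dist2) against 30.8 in PatDp(dist2), at least 2.06-fold higher. Dlx2, its neighbour on Chr 2, had 465 in MatDp(dist2) against 357 in PatDp(dist2), 1.30-fold higher. Dlx5 had 669.5 in MatDp(dist2) against 397 in PatDp(dist2), 1.69-fold higher, and Dlx6 had 201 in MatDp(dist2) against 136.5 in PatDp(dist2), at least 1.07-fold higher. All 4 had the higher signal in MatDp(dist2), and of these ratios and bounds that of Dlx1 alone reached 2-fold. Nr2f2, an orphan nuclear receptor of interneurons from the caudal ganglionic eminence and of veins and mesenchyme, had 820.5 in MatDp(dist2) against 533 in PatDp(dist2), 1.54-fold higher, and its 4 measured probe sets spanned 1.02-fold to 1.54-fold. Sp8, a zinc finger factor of olfactory bulb interneurons and their progenitors, had 179 in MatDp(dist2) against 63.5 in PatDp(dist2), both below the floor.

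Of the 5 striatal factors, all had the higher signal in MatDp(dist2) and 2 were 2-fold or more higher. Bcl11b, a zinc finger factor of striatal projection neurons and of cortical layer 5, also made in T cells, skin and teeth, had a signal of 2481 in MatDp(dist2) against 827 in PatDp(dist2), a log2 ratio of 1.59. Its 4 probe sets ranged from at least 1.80-fold to 6.44-fold, the highest being 1450339_a_at (1361 in MatDp(dist2) against 211 in PatDp(dist2)). Foxp2, a forkhead factor of the striatum, deep cortical layers and Purkinje cells, had 2164 in MatDp(dist2) against 651.5 in PatDp(dist2), 3.32-fold higher, and 2 of its 4 measured probe sets passed 2-fold.

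Foxp1, the related forkhead factor of striatum and cortex that many other tissues express, had 2010.1 in MatDp(dist2) against 1889 in PatDp(dist2), 1.06-fold higher, and none of its 8 measured probe sets reached 2-fold. Isl1, a LIM homeodomain factor of striatonigral neurons, motor neurons and sensory ganglia, had 879 in MatDp(dist2) against 600.4 in PatDp(dist2), 1.46-fold higher. Meis2, a homeodomain factor of the striatum and of the neural crest of the face, had 3937 in MatDp(dist2) against 2056 in PatDp(dist2), 1.91-fold higher. The 4 Meis2 probe sets lay close together, between 1.88-fold and 1.98-fold, all under 2-fold.

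All 7 progenitor factors had the higher signal in MatDp(dist2). Of the 3 that reached the floor in both heads 2 were 2-fold or more higher there, and bounds added 1 more. Lhx2, a selector gene of cortical identity that is also needed in the eye and hair follicle, had a signal of 924 in MatDp(dist2) against 253 in PatDp(dist2), 3.66-fold higher. Nr2f1, an orphan nuclear receptor that sets the areas of the cortex, had 2710 in MatDp(dist2) against 1203 in PatDp(dist2), 2.25-fold higher. Eomes, a T-box factor of intermediate progenitors and of olfactory bulb projection neurons, had 468 in MatDp(dist2) against 77.4 in PatDp(dist2), at least 2.50-fold higher, and its second probe set was below the floor in both heads.

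Neurog2, a basic helix-loop-helix factor that starts glutamatergic differentiation upstream of the Neurod genes, had 285 in MatDp(dist2) against 55.6 in PatDp(dist2), at least 1.52-fold higher. Of the Emx homeodomain factors of the pallium, Emx2 had 593 in MatDp(dist2) against 371 in PatDp(dist2), 1.60-fold higher, and Emx1 had 198 in MatDp(dist2) against 38.2 in PatDp(dist2), at least 1.06-fold higher, the bound being small because the brighter signal barely passed the floor. Gsx2, which specifies the lateral ganglionic eminence, had 52.0 in MatDp(dist2) against 24.1 in PatDp(dist2), both below the floor.

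The factors were also set beside genes of like brightness, since the ratios of all genes drifted with it. Among all measured genes the median log2 ratio was 0.12 where the geometric mean of both signals was under 300, 0.08 from 300 to 1000 and -0.10 from 1000 upward. The factors had medians of 0.75 from 300 to 1000 and 1.17 from 1000 upward, over 11 and 9 genes. Neurod6, in the middle range, is the one bound among these 20. In the brightest range 5 of 9 factors were 2-fold or more higher in MatDp(dist2), where the same was true of 2.58% of all genes and 5.2% were 2-fold or more higher in PatDp(dist2). From 300 to 1000 it held for 5 of 11 factors, against 5.89% of all genes, with 2.87% the other way. No count is given for the 10 factors under 300, because 9 of them passed the floor in MatDp(dist2) alone.

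**Figure D3:**
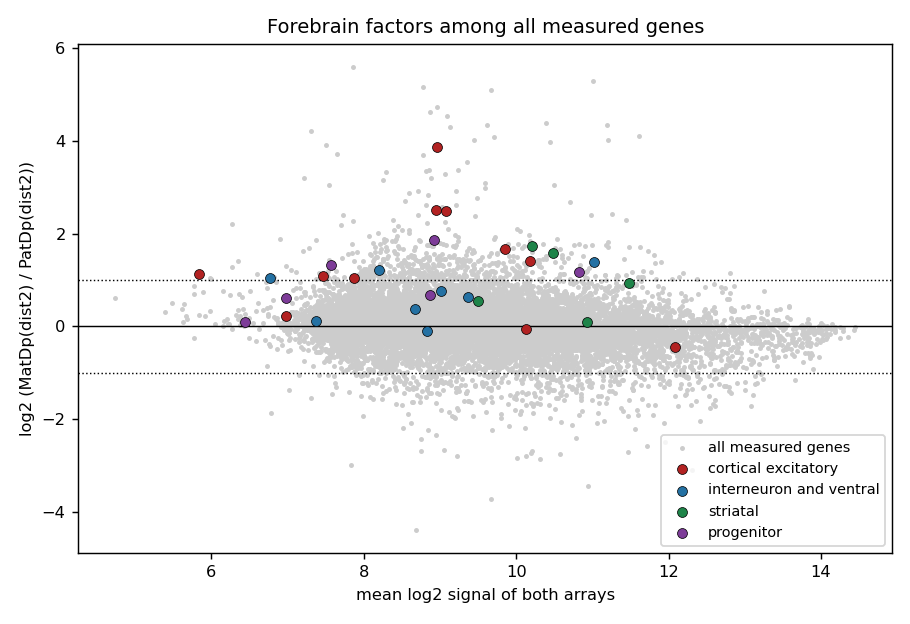
Log2 ratio of MatDp(dist2) over PatDp(dist2) against the mean log2 signal of both arrays for all measured genes (grey) and for the measured forebrain factors (coloured by group), with bounds plotted as values and dotted lines at 2-fold either way. Of the 30 coloured points 27 lie above 0, and Mef2c lies furthest right and lowest.

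Of the 33 genes, 7 lie on Chr 2 and 2 on Chr 9, the chromosomes that carry the duplicated parts. All 7 on Chr 2 (Neurod1, Tbr1, Dlx1, Dlx2, Lhx2, Lhx6 and Meis2) lie proximal of H13, an imprinted gene of distal Chr 2, in the RefSeq gene order. The labels do not place the breakpoint, so which of them lie in the duplicated part was not determined. Zic1 and Eomes lie on Chr 9. Past 2-fold in MatDp(dist2) were 7 of the 9 on these chromosomes and 9 of the 21 measured factors of other chromosomes. Of all 12483 measured genes 4.43% passed the same rule, and no such share is given here by chromosome. These counts of factors hold bounds, and the difference between them was not tested. Neurod6 and Neurod2 lie on Chr 6 and Chr 11.

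Other gene lists show what moved with the factors. Of 14 pan-neuronal markers, 10 were 2-fold or more higher in MatDp(dist2) and 0 in PatDp(dist2), with a median of 2.26-fold. Their summed signals were 49446 in MatDp(dist2) and 25597 in PatDp(dist2). No marker was listed at 0. The largest differences were those of the neuronal tubulin Tubb3 (3.68-fold), Dcx (3.37-fold) and Mapt, a microtubule-binding protein of axons, which read 5706 in MatDp(dist2) against 1747 in PatDp(dist2). The neurofilament genes Nefl (3037 in MatDp(dist2) against 4339 in PatDp(dist2)) and Nefm (1735 in MatDp(dist2) against 2259 in PatDp(dist2)) went the other way, 1.43-fold and 1.30-fold higher in PatDp(dist2). The part of these neuronal markers in the higher signals of the forebrain factors was not tested.

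A list of 40 other forebrain factors on the array had a smaller median. Of 32 measured, 8 were 2-fold or more higher in MatDp(dist2) and 0 in PatDp(dist2), with a median of 1.39-fold that includes bounds. Of the 22 that reached the floor in both heads 3 were 2-fold or more higher, and the median of the 22 was 1.11-fold. By any amount, 24 of the 32 were higher in MatDp(dist2) and 8 in PatDp(dist2), of which Ebf1 differed most (1.65-fold higher in PatDp(dist2)). Sox11, a factor of newly formed neurons, had 6187.5 in MatDp(dist2) against 1258 in PatDp(dist2), 4.92-fold higher. Lmo3, a LIM-only cofactor, had 792.5 in MatDp(dist2) against 165 in PatDp(dist2), at least 4.24-fold higher, and Insm1, a zinc finger factor of intermediate progenitors and endocrine cells, had 759.7 in MatDp(dist2) against 113 in PatDp(dist2), at least 4.06-fold higher.

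With bounds counted, factors of the midbrain, hindbrain and spinal cord lay closer to the rest of the genes than the other forebrain factors did. Of 16 measured, 0 were 2-fold or more higher in MatDp(dist2) and 1 in PatDp(dist2), with a median of 1.08-fold whose sign changed between alternative settings. The other 16 were below the floor in both heads. On the deposited signals without the floor, 22 of the 32 on the array were higher in MatDp(dist2), with a median of 1.29-fold. Over all genes these values were 54.3% and 1.04-fold. The largest ratios or bounds were those of Hoxc4 (176 in MatDp(dist2) against 376 in PatDp(dist2)) and Hoxb2 (214 in MatDp(dist2) against 369 in PatDp(dist2)), which pattern the neck and hindbrain and were higher in PatDp(dist2), and Zic4 (309 in MatDp(dist2) against 194 in PatDp(dist2)). Over genes that reached the floor in both heads, the median was 1.12-fold for 12 genes of this list. It was 1.11-fold for the 22 other forebrain factors, so these 2 lists did not differ there. The difference in median between the 2 regions' lists with bounds counted was not tested.

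Retina and eye factors had 4 measured members, 3 of them with only a bound. Pax6, also a cortical progenitor factor, had 371.5 in MatDp(dist2) against 109 in PatDp(dist2), Atoh7, which starts the ganglion cells of the retina, had 332.5 in MatDp(dist2) against 61.6 in PatDp(dist2), and Otx2, of retina, choroid plexus and midbrain, had 316 in MatDp(dist2) against 26.0 in PatDp(dist2). These were at least 1.99-fold, at least 1.78-fold and at least 1.69-fold higher in MatDp(dist2). Mitf, the 1 factor of this list that reached the floor in both heads, had 316 in MatDp(dist2) against 417 in PatDp(dist2), 1.32-fold higher in PatDp(dist2). On the deposited signals without the floor, 9 of the 10 retina and eye factors on the array were higher in MatDp(dist2), with a median of 2.28-fold. That median rests on noisy low signals, since 6 of the 10 were below the floor in both heads. Lhx2, Isl1, Neurod1 and Pou3f2 are also made in the retina, and the part of eye tissue in their values was not tested.

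Genes listed for the 4 classes of cells were read as well, and differences between these lists were not tested. Some of the genes are not confined to their class, among them Gria2 and Grin2b of the excitatory list. Of 11 measured interneuron products 5 were 2-fold or more higher, with a median of 1.78-fold, among them Npy, a neuropeptide (1020.3 in MatDp(dist2) against 376 in PatDp(dist2)), and Calb2, a calcium buffer (1177 in MatDp(dist2) against 442 in PatDp(dist2)), after Gad1, which makes GABA (3.41-fold). Of 9 measured excitatory neuron products 2 were, with a median of 1.51-fold: the glutamate receptor subunits Gria2 (3363 in MatDp(dist2) against 982 in PatDp(dist2)) and Grin2b (593.5 in MatDp(dist2) against 192 in PatDp(dist2)), while the calmodulin-binding protein gene Nrgn had at least 1.93-fold. Of 6 measured striatal products 1 was, the phosphodiesterase gene Pde10a (977 in MatDp(dist2) against 423 in PatDp(dist2)), with a median of 1.17-fold. Pde1b, another phosphodiesterase gene, had 514 in MatDp(dist2) against 282 in PatDp(dist2), and the opioid precursor Penk had 2131 in MatDp(dist2) against 1733 in PatDp(dist2). Of 15 progenitor and radial glia genes 2 were, Insm1 and the stem cell factor Sox2 (1865 in MatDp(dist2) against 899 in PatDp(dist2)), with a median of 1.28-fold. The other way went 4 of the 15, the filament gene Vim (1.32-fold higher in PatDp(dist2)), Btg2 (1.22-fold), the proliferation marker Mki67 (1.19-fold) and Prom1 (1.12-fold), as did 1 interneuron product, Ackr3, and 2 striatal products, Ppp1r1b and Tac1. In none of these 4 lists was a gene 2-fold or more higher in PatDp(dist2).

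DNA-binding partners and cofactors of the factors were nearer to equal. Of 15 measured, 1 was 2-fold or more higher in MatDp(dist2) and 0 in PatDp(dist2), with a median of 1.21-fold. That gene was Ldb1, the bridging protein that LIM homeodomain factors such as Lhx2 and Lhx6 need, which read 737 in MatDp(dist2) against 363 in PatDp(dist2). Pbx3, a homeodomain partner of Meis proteins, had 3226 in MatDp(dist2) against 1759.6 in PatDp(dist2), 1.83-fold higher, and Zfpm2, a cofactor of GATA factors, had 543 in MatDp(dist2) against 318.5 in PatDp(dist2), 1.71-fold higher.

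Factors of muscle and skeleton, which a whole head also holds, did not share the direction. Of 8 measured muscle factors 0 were 2-fold or more higher in MatDp(dist2) and 1 in PatDp(dist2). That gene was Myf6, a myogenic factor of mature fibres, which read 627 in MatDp(dist2) against 1435 in PatDp(dist2). Eya4 had 516 in MatDp(dist2) against 828 in PatDp(dist2) and the myogenic factor Myf5 had 216 in MatDp(dist2) against 342 in PatDp(dist2). The median log2 ratio of the muscle list was -0.52, and the summed signals were 7973 in MatDp(dist2) and 10240 in PatDp(dist2). Mef2c, of the forebrain list, is a muscle factor as well and lay on the same side on its brightest probe set. Of 14 measured skeletal and connective tissue factors none had a ratio or bound of 2-fold in either direction, with a median log2 ratio of -0.02 whose sign changed between alternative settings. Prrx2, a mesenchymal factor, had 355 in MatDp(dist2) against 195 in PatDp(dist2), the tendon factor Scx had 183.5 in MatDp(dist2) against 319.6 in PatDp(dist2) and the cartilage factor Sox9 had 390.1 in MatDp(dist2) against 236 in PatDp(dist2).

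**Figure D4:**
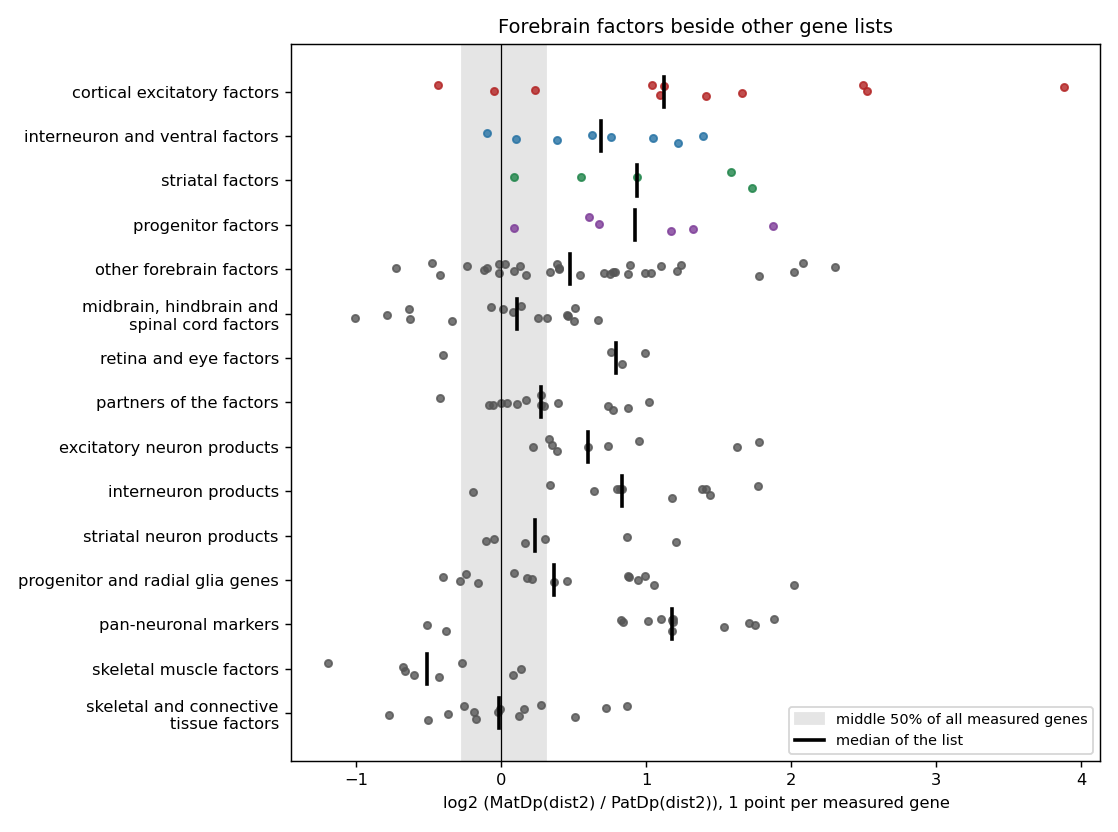
Log2 ratio of MatDp(dist2) over PatDp(dist2) for each measured gene of the 4 groups of forebrain factors (coloured) and of 11 other lists (dark grey), bounds included, with a black bar at each list's median and a grey band over the middle 50% of all measured genes. The medians of the 4 forebrain groups, of pan-neuronal markers, of other forebrain factors, of retina and eye factors, of excitatory and interneuron products and of progenitor and radial glia genes lie to the right of the band, and the median of muscle factors lies to its left. Without bounds, the medians of other forebrain factors (0.15) and of progenitor and radial glia genes (0.19) fall within the band. The 1 retina and eye factor that is not a bound, Mitf (-0.40), lies to its left.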

How the data were processed

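Whole-head RNA of each genotype was hybridised to 1 array as biotin-labelled cRNA, per the labels' protocols. The intensity values are MAS5 signals on a linear scale, made by the authors with MAS5 and GCOS, according to the submitters' processing notes (no version is named). Trimmed of 2% of probe sets at each end, both deposited arrays averaged 500.002, so they had been scaled alike. Probe detection calls were not used here. MAS5 subtracts mismatch probe signals, which makes low values noisy, and 1 array per genotype limits precision.

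From the deposited signals, ratios, log2 ratios, bounds at the floor and counts were computed in Python 3.11.15 with pandas 2.3.3, after a check on simulated data. Of 45101 probe sets, 64 controls were left out. The 34945 with 1 gene symbol took their names from GEO's platform table, updated through gene IDs in RefSeq for GRCm38.p6, and stood for 18193 genes. The 932 with several symbols and the 9160 not listed were unnamed. No p-value was possible, since each group has 1 sample. All 33 factors are named, and of every other list the 3 measured genes with the largest ratio or bound in either direction. Some further genes of these lists are named because they were higher in PatDp(dist2). The factors were left out of the other lists, while some genes, among them Pax6, Prox1, Hes5 and Insm1, stand in more than 1 of those lists. The factors, lists and rules were chosen with earlier results of these data known. Scaling, floor, offset, probe set choice and fold threshold were varied.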

Additional observations from a re-analysis of the deposited data

How the results depend on the processing

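With 1 array per genotype no replicate could be left out, and no paired analysis was possible because each group has 1 array. The count of 16 factors 2-fold or more higher with MatDp(dist2) was 9 when the floor was raised to the 70th percentile (a signal of 465), 10 with an offset of 100 and 7 at a 3-fold threshold, where 2.95%, 2.85% and 1.17% of all measured genes were called. It lay between 15 and 21 under the other alternatives, and 9 factors (Bcl11a, Bcl11b, Foxp2, Neurod1, Neurod2, Neurod6, Nr2f1, Pou3f3 and Zic1) were called under all 8 other choices of floor, scaling, offset or probe set. No factor passed the threshold in the other direction in any of these, nor at 1.5-fold. Meis2 passed 2-fold with quantile normalization and with the loess fit. The count of 24 probe sets was 15 with the higher floor and 13 at 3-fold. At 1.5-fold 1 probe set, Mef2c 1451506_at, was higher with PatDp(dist2). The median log2 ratio of the progenitor factors, 0.92, was 1.64 when the floor was lowered to the 30th percentile (75.1), which raises the bounds of dim genes. The median of the factors ran from 0.78 to 1.40 over these alternatives. Of 228 values of single factors, 215 moved by less than 1.5 times, 13 moved further, all of them with a changed floor, which changes bounds by construction, and 0 reversed a call. The medians of midbrain, hindbrain and spinal cord factors (-0.03 to 0.35) and of skeletal factors (-0.17 to 0.12) changed sign between alternatives. The retina and eye list had no value with the higher floor, since none of its genes was measured there.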

Other observations

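Probe set 1429857_at, which the platform annotation assigns to both Pou3f3 and the noncoding gene 2900092D14Rik and which was therefore left out above, read 392 with MatDp(dist2) and 88.7, below the floor, with PatDp(dist2).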
